A study of Mus musculus with 64 samples.

Results

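The genes described here build sterols and fatty acids or control that process. They were chosen by symbol as 35 of the 36273 rows of a gene count table: 7 enzymes of the mevalonate pathway, 11 enzymes that turn farnesyl units into squalene and cholesterol, 6 regulators and sterol carriers, and 11 enzymes of fatty acid synthesis, elongation and desaturation. Of the 35, 32 had enough counts to be tested, within 10723 tested genes. Idi1 (isopentenyl isomerase), Tm7sf2 (a sterol reductase) and Scd1 (a stearoyl-CoA desaturase) were too low, with mean levels of 3.01, 2.01 and 0.684 CPM (counts per 1000000 of the library's total after TMM scaling, the composition correction of edgeR).

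The table holds bulk 3′ mRNA libraries of natural killer (NK) cells, lymphocytes that kill infected or transformed cells. The cells came from mouse spleen and were cultured for 5 days with IL-15 joined to its receptor alpha chain and a low dose of IL-2. DKO cells carried GzmbCre, Ptger2-/- and Ptger4 fl/fl and so lack the prostaglandin E2 receptor EP2 and, where Cre made from the Gzmb promoter has acted, the receptor EP4. EP2KO cells carried Ptger2-/- and Ptger4 fl/fl without Cre, and WT cells were C57BL/6J. Cells of each genotype received conditioned medium (CM) of BRAFV600E tumour cells that make prostaglandin E2, or 100 ng/ml prostaglandin E2 (PGE2), or no treatment, for 5 hours. In the stimulated arm 1 hour of treatment was followed by 4 hours of antibody against NK1.1, an activating receptor of NK cells. CM holds other tumour products besides PGE2. Each of the 18 groups had 3 DKO, 4 EP2KO or 4 WT libraries, except PGE2 in unstimulated WT cells, which had 2. The labels do not say whether libraries of a group came from separate mice or cultures. The p-values thus rest on the spread among these libraries, which may be technical.

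Sterol synthesis starts from acetyl-CoA, passes through mevalonate and squalene, and ends in cholesterol, while fatty acid synthesis turns acetyl-CoA into malonyl-CoA and then palmitate, which elongases and desaturases remodel. The transcription factors SREBP1 and SREBP2, made from Srebf1 and Srebf2, switch on most of these enzymes. They are carried by SCAP from the endoplasmic reticulum when sterols are scarce and are held back there by the INSIG proteins when sterols are plentiful. Insig1 is itself a target of the SREBPs, and in mouse NK cells SREBP activity is known to be needed for the metabolic response to cytokines. EP2 and EP4 signal through cAMP.

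Library totals ran from 753973 to 1693750 counts with a median of 1256163, so that 1 count was close to 1 CPM and a gene of a few CPM rested on a few counts. The NK genes Ncr1, Klrb1c and Gzmb were above 0 in all 64 libraries, with means of 138, 256 and 2110 CPM. Summed over each list, markers of neutrophils, T and B lymphocytes, macrophages with dendritic cells, erythroid cells and melanoma held at most 0.0893% of a library. Cd4 was at 0 in 45 libraries, C1qa in 61, Ly6g in 54, Alas2 in 59 and Mlana in 63. Some other genes of the neutrophil, T cell, B cell and macrophage lists were above 0 in all 64 libraries. Among them were Mpo with a mean of 82.1 CPM, S100a8 with 64.3 CPM, Ighm with 60 CPM, Trac with 32 CPM and Lyz2 with 31.6 CPM. The targeted genes did not separate the genotypes in these 3′ counts. Ptger2 had 3 to 21 counts per DKO library, 3 to 16 per EP2KO library and 3 to 47 per WT library. Ptger4 had 35 to 176 counts per DKO library, 12 to 95 per EP2KO library and 7 to 113 per WT library. Counts outside a deleted part check nothing, and where the deletions lie relative to the counted ends is not given in the sources used here. Xist had 43 to 80 counts in DKO libraries, 536 to 1052 in EP2KO libraries and 532 to 1234 in WT libraries, and Ddx3y had 69 to 224, 0 to 8 and 0 to 7 counts in the same order of genotypes. A difference between DKO cells and the others therefore cannot be told apart from one of the sex of the mice. In bulk samples fewer cells of a type and less RNA per cell cannot be told apart.

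Start-site regions were read for 28 of the 35 genes, as 37 windows of 300 bases from 250 before to 50 after a RefSeq transcript start (GRCm38.p6). Within them 5 motifs were searched on both strands: the CCAAT box that NF-Y binds, the GGGCGG box that Sp1 binds, the CACGTG E-box, the cAMP response element TGACGTCA, and the sterol regulatory element in the letters TCACNCCAC. The CCAAT letters were in a window of 23 of the 28 genes (82.1%), against 41.1% of all 27025 genes with such windows. GGGCGG was likewise in 23 genes (82.1%, against 38.2%), CACGTG in 6 (21.4%, against 8.09%), TGACGTCA in 1, Elovl5 (3.57%, against 2.03%), and TCACNCCAC in 1, Hmgcs1 (3.57%, against 1.44%). The 27025 genes were not limited to the 10723 tested here, so these shares do not set the members against other tested genes. A match describes letters and not a site of binding. The windows of 4 genes whose level rose with stimulation are shown, then that of Hmgcs1, in which the sterol element was found. Capitals mark the CCAAT letters on either strand (CCAAT or ATTGG), the E-box and the sterol element, and each line runs 5′ to 3′ on the strand of the gene. The regions are chr5:28071162-28071461 on the plus strand for Insig1, chr11:120824498-120824797 on the minus strand for Fasn, chr5:4104648-4104947 on the minus strand for Cyp51, chr1:169969156-169969455 on the minus strand for Hsd17b7, and chr13:119690101-119690400 on the plus strand for Hmgcs1.
Insig1: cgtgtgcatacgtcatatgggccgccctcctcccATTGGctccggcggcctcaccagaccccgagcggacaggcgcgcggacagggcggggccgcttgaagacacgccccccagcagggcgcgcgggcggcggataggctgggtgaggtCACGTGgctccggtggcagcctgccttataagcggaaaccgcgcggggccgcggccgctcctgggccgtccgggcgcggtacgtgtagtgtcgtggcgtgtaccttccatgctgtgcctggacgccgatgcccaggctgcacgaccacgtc
Fasn: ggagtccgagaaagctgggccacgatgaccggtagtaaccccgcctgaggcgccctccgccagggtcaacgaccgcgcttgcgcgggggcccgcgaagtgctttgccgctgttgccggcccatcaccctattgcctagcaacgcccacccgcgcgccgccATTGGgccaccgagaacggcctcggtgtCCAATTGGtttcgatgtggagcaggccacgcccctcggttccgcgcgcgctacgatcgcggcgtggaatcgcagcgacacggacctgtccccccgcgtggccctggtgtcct
Cyp51: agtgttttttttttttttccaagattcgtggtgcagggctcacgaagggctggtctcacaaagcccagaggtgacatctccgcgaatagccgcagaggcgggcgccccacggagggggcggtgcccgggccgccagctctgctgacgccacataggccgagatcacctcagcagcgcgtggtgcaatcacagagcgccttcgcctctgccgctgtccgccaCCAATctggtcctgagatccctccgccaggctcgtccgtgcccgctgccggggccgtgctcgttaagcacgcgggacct
Hsd17b7: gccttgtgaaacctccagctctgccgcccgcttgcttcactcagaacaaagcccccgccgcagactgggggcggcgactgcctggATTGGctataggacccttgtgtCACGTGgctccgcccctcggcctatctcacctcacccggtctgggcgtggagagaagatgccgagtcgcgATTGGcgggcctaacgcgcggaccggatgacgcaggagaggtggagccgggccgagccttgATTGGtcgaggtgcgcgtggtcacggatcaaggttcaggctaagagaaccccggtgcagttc
Hmgcs1: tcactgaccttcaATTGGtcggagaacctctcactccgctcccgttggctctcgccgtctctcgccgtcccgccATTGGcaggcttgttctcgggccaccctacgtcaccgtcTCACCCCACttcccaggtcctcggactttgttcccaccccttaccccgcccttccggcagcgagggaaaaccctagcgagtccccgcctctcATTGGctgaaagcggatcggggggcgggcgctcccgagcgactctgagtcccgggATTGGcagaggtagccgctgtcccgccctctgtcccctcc
In these lines the CCAAT letters occur in every window and the E-box in those of Insig1 and Hsd17b7.

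Stimulation through NK1.1 moved these genes in both directions in untreated WT cells. Acaca and Fasn, the enzymes that make malonyl-CoA and palmitate, rose, as did Insig1, the sterol enzymes Cyp51 (lanosterol demethylase) and Hsd17b7 (a sterol ketoreductase), and Srebf2. Enzymes of the mevalonate pathway and later sterol steps fell, among them Mvk (mevalonate kinase) and Fdft1 (squalene synthase), and so did the elongases Elovl5 and Elovl6 and the desaturase Fads1. With an adjusted p below 0.05 (edgeR), 6 members were called higher and 10 lower, while 42% of all tested genes were called in this comparison (23% higher and 19.1% lower). The median log2 fold change of the 32 members was -0.13, against 0.01 for all tested genes. The share of members called, 50%, was thus near that of all genes.

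Fasn had 107, 64.1, 80.9 and 89.8 CPM in stimulated WT libraries, against 39.7, 41.1, 31.2 and 28.04 CPM in unstimulated ones. Every stimulated library was above every unstimulated one, and the log2 fold change was 1.27 ± 0.18 (SE, adjusted p = 1.7e-08). Acaca, acetyl-CoA carboxylase, had 43.1, 39.9, 29.1 and 28.6 CPM in stimulated WT libraries, against 7.21, 11.9, 6.62 and 11.5 CPM in unstimulated ones. These groups did not overlap either, with a log2 fold change of 1.91 ± 0.27 (adjusted p = 3.31e-08). Insig1 had 27.97, 38.5, 39.98 and 39.5 CPM in stimulated WT libraries, against 18.8, 12.7, 22.7 and 17.3 CPM in unstimulated ones. The lowest stimulated library, replicate 1, still lay above the highest unstimulated one, and the log2 fold change was 1.03 ± 0.24 (adjusted p = 0.00032). Srebf2 had 58.2, 49.1, 59.96 and 53.4 CPM in stimulated WT libraries, against 44.7, 35.6, 45.4 and 41.2 CPM in unstimulated ones. The groups were separate but close, and the log2 fold change was 0.40 ± 0.15 (adjusted p = 0.0283).

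Within the sterol pathway the response of WT cells was split. Of 6 mevalonate enzymes tested, 0 were higher and 3 lower: Mvk at a log2 fold change of -1.99 ± 0.43, Pmvk (phosphomevalonate kinase) at -0.98 ± 0.33 and Fdps (farnesyl diphosphate synthase) at -0.92 ± 0.32. Mvk had 2.27, 1.42, 2.73 and 4.64 CPM in stimulated libraries, against 12.98, 7.12, 11.3 and 13.2 CPM in unstimulated ones, so its stimulated level rested on a handful of counts. Of 10 enzymes from squalene to cholesterol, 2 were higher, Cyp51 at 0.71 ± 0.19 and Hsd17b7 at 0.85 ± 0.28, and 4 were lower. The 4 were Fdft1 at -0.98 ± 0.30, Dhcr7 (the last reductase before cholesterol) at -1.32 ± 0.44, Sc5d (a sterol desaturase) at -0.65 ± 0.21 and Ebp (a sterol isomerase) at -0.63 ± 0.20. Fdft1 shares 774 bases of exon with Ctsb on the opposite strand, and whether counting used the strand is not given in the sources used here, so its counts are uncertain. The same holds for Cyp51, which shares up to 166 bases with Akap9 on the opposite strand. Fdps shares up to 197 bases with Gm43738 on its own strand, so its counts are uncertain either way. Exons of some other members also overlap other genes, among them Hmgcs1, Scap, Srebf1, Elovl1 and Elovl6. Of 10 fatty acid enzymes, 2 were higher and 3 lower: Fads1 at -0.97 ± 0.33, Elovl6 at -0.88 ± 0.20 and Elovl5 at -0.44 ± 0.16. Srebf1, whose product drives fatty acid genes, had 16.6, 9.26, 15.4 and 16.3 CPM in stimulated libraries, against 7.94, 9.49, 12.3 and 11.5 CPM in unstimulated ones, and was not called (adjusted p = 0.124).

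Hmgcs1, Sqle, Acly and Scd2 did not pass the test in stimulated WT cells. Hmgcs1, the synthase that feeds the mevalonate pathway, had 60.5, 59.8, 51.8 and 60.4 CPM in stimulated libraries, against 46.9, 60.9, 51.05 and 51.95 CPM in unstimulated ones. Sqle, squalene epoxidase, had 30.2, 29.2, 28.2 and 25.5 CPM in stimulated libraries, against 29.6, 22.9, 21.7 and 25.6 CPM in unstimulated ones. Acly, which makes cytosolic acetyl-CoA from citrate, had 99.02, 64.8, 77.2 and 53.4 CPM in stimulated libraries, against 59.2, 74.4, 80.4 and 57.7 CPM in unstimulated ones. The groups overlapped for each, and the 95% intervals of their log2 fold changes were -0.17 to 0.46 for Hmgcs1, -0.27 to 0.62 for Sqle and -0.21 to 0.45 for Acly. Scd2, a stearoyl-CoA desaturase, had 36.3, 30.6, 30.9 and 17.03 CPM in stimulated libraries, against 37.5, 27.7, 36.9 and 19.8 CPM in unstimulated ones, again with overlap.

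In WT cells the calls of Fasn, Acaca, Mvk, Insig1, Elovl6, Cyp51, Fdft1 and Sc5d held without any 1 of the 8 libraries. The others lost theirs in some cases, at adjusted p of at most 0.112: Ebp and Pmvk without stimulated replicate 2, Fads1 without unstimulated replicate 1, Dhcr7 without unstimulated replicate 4 or stimulated replicate 3, Hsd17b7 without unstimulated replicate 1 or stimulated replicate 2, Fdps without unstimulated replicate 4 or stimulated replicate 1 or 2, Elovl5 without unstimulated replicate 1 or 2 or stimulated replicate 3, and Srebf2 without unstimulated replicate 2 or 4 or stimulated replicate 1 or 3.

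Fasn, Acaca, Insig1 and Hsd17b7 were also called higher, and Elovl6 and Sc5d lower, in untreated DKO and untreated EP2KO cells. In DKO cells 5 members were higher and 6 lower (30.2% of all tested genes called, 16.4% higher and 13.8% lower), and in EP2KO cells 4 were higher and 2 lower (33.3%, 18.4% higher and 15% lower). Insig1 had 33.3, 30.4 and 23.9 CPM in stimulated DKO libraries, against 14.7, 11.8 and 16.9 CPM in unstimulated DKO libraries, a log2 fold change of 1.01 ± 0.28 (adjusted p = 0.00383). It had 45.5, 34.9, 25.8 and 26.2 CPM in stimulated EP2KO libraries, against 17.3, 21.7, 11.1 and 14.2 CPM in unstimulated EP2KO libraries, a log2 fold change of 1.04 ± 0.24 (adjusted p = 0.000485). In each genotype the stimulated libraries lay above the unstimulated ones. Fasn had 77.6, 70.1 and 65.3 CPM in stimulated DKO libraries, against 27.2, 37.5 and 41.2 CPM in unstimulated DKO libraries (1.01 ± 0.20). In EP2KO cells it had 90.2, 69.9, 94.7 and 77.8 CPM with stimulation, against 51.2, 42.7, 33.4 and 48.2 CPM without (0.92 ± 0.17). Here too the groups did not overlap.

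Acaca rose by a log2 fold change of 1.05 ± 0.29 in DKO cells and 1.20 ± 0.25 in EP2KO cells, and Hsd17b7 by 0.92 ± 0.31 and 1.07 ± 0.27 in the same order. Elovl6, which elongates palmitate to stearate, had 12.3, 13.7 and 19.7 CPM in stimulated DKO libraries, against 45.4, 47.1 and 34.5 CPM in unstimulated DKO libraries (-1.47 ± 0.24, adjusted p = 1.16e-06). It had 17.8, 12.1, 15.5 and 30.8 CPM in stimulated EP2KO libraries, against 32.3, 44.2, 37.4 and 38.8 CPM in unstimulated EP2KO libraries (-1.003 ± 0.21), and 27.2, 26.4, 13.6 and 17.03 CPM in stimulated WT libraries, against 42.6, 31.6, 38.8 and 43.7 CPM in unstimulated WT libraries. Stimulated libraries of each genotype were below all unstimulated ones. Cyp51 was called in DKO cells at 0.59 ± 0.22 and not in EP2KO cells at 0.42 ± 0.19 (adjusted p = 0.0804). Acat2 (acetoacetyl-CoA thiolase), Mvd (mevalonate diphosphate decarboxylase), Fdft1 and Nsdhl (a sterol dehydrogenase) were the other members called lower in DKO cells, at log2 fold changes of -1.24 ± 0.49, -1.15 ± 0.41, -1.16 ± 0.35 and -1.17 ± 0.41. The DKO count of 11 was 4 without replicate 2 of the unstimulated libraries, those of Fasn, Acaca, Insig1 and Elovl6, which held without any 1 library. Cyp51 and Acat2 lost their calls in 4 of the 6 cases with 1 DKO library left out (adjusted p up to 0.212), Sc5d also without stimulated replicate 3, Hsd17b7 without unstimulated replicate 3 or stimulated replicate 1, Nsdhl without stimulated replicate 1 and Mvd without stimulated replicate 2. The 6 EP2KO calls held without any 1 library. B cell markers held 0.00789% to 0.0131% of stimulated and 0.0133% to 0.015% of unstimulated DKO libraries, and macrophage and dendritic cell markers 0.00835% to 0.00974% and 0.0102% to 0.0121% in the same order. Their part was not tested. The differences between the genotypes in the effect of stimulation were not tested.

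**Figure D1:**
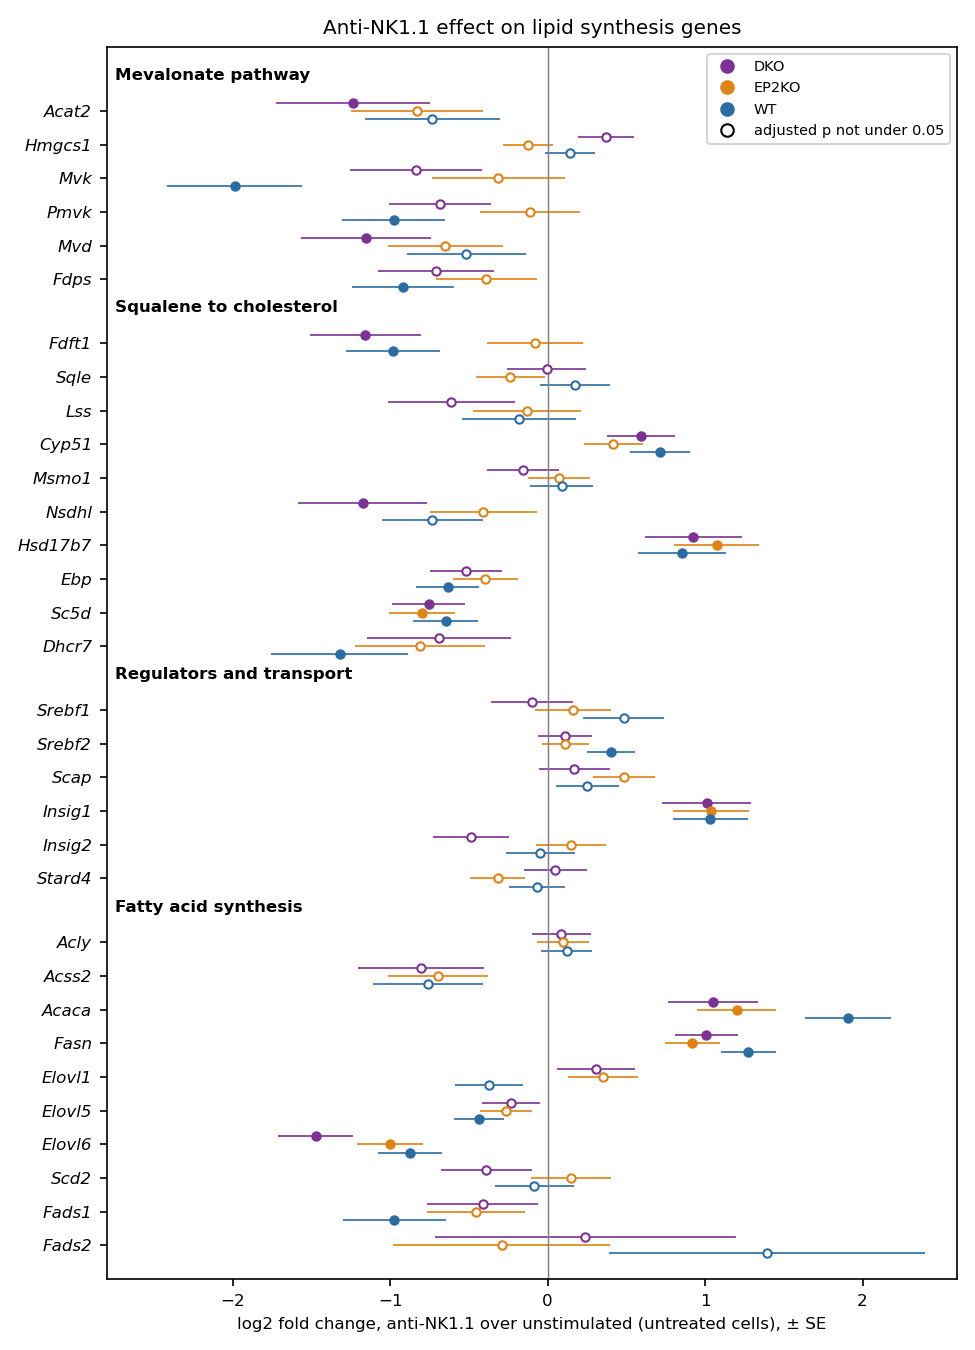
Log2 fold change of each tested member, anti-NK1.1 over unstimulated, in untreated DKO, EP2KO and WT cells, with the SE of the fit as bars; filled points had an adjusted p under 0.05. Acaca, Fasn, Insig1 and Hsd17b7 are filled to the right and Elovl6 and Sc5d to the left in all 3 genotypes, and 11, 6 and 16 members are filled in DKO, EP2KO and WT cells.

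In the mutants Hmgcs1, Sqle, Srebf1, Srebf2, Acly and Scd2 did not pass the test of stimulation. Hmgcs1 had 62.3, 78.2 and 59.00 CPM in stimulated DKO libraries, against 51.7, 48.6 and 54.4 CPM in unstimulated DKO libraries, and 45.5, 58.5, 57.7 and 56.2 CPM in stimulated EP2KO libraries, against 53.5, 56.7, 49.4 and 78.5 CPM in unstimulated EP2KO libraries. All stimulated DKO libraries were above the unstimulated ones, without a call (adjusted p = 0.108). Sqle had 23.9, 29.8 and 22.5 CPM in stimulated DKO libraries, against 23.05, 28.7 and 24.99 CPM in unstimulated DKO libraries, and 24.9, 26.4, 35.3 and 19.3 CPM in stimulated EP2KO libraries, against 33.1, 31.1, 28.7 and 31.2 CPM in unstimulated EP2KO libraries. Srebf1 had 18.8, 9.31 and 16.9 CPM in stimulated DKO libraries, against 15.4, 17.7 and 14.7 CPM in unstimulated DKO libraries, and 17.1, 12.8, 15.5 and 16.9 CPM in stimulated EP2KO libraries, against 14.2, 16.3, 14.3 and 10.4 CPM in unstimulated EP2KO libraries. Neither of these genes separated the groups. Srebf2 had 46.4, 45.3 and 50.6 CPM in stimulated DKO libraries, against 43.3, 47.1 and 41.2 CPM in unstimulated DKO libraries, and 51.9, 49.2, 55.9 and 54.7 CPM in stimulated EP2KO libraries, against 49.6, 48.9, 37.4 and 60.5 CPM in unstimulated EP2KO libraries. Acly had 59.4, 62.7 and 75.2 CPM in stimulated DKO libraries, against 59.4, 48.6 and 77.9 CPM in unstimulated DKO libraries, and 69.6, 68.5, 98.98 and 56.98 CPM in stimulated EP2KO libraries, against 68.5, 55.1, 66.9 and 84.1 CPM in unstimulated EP2KO libraries. These groups overlapped as well. Scd2 had 27.5, 24.8 and 20.4 CPM in stimulated DKO libraries, against 36.3, 27.2 and 31.6 CPM in unstimulated DKO libraries, and 27.00, 30.7, 25.8 and 37.7 CPM in stimulated EP2KO libraries, against 21.3, 22.5, 27.9 and 38.8 CPM in unstimulated EP2KO libraries. It overlapped in both genotypes.

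Of 66 tested lipid genes outside the 32 that were listed beside them, 11 were higher in each genotype with stimulation of untreated cells, where 16.4% of all tested genes were higher in DKO, 18.4% in EP2KO and 23% in WT cells. In DKO cells 13 were lower, in EP2KO cells 15 and in WT cells 20, beside 13.8%, 15% and 19.1% of all tested genes in the same order. Among those called in WT cells were Acsl4 (an acyl-CoA synthetase for arachidonate) at 1.33 ± 0.14, Hsd17b12 (a ketoacyl-CoA reductase of elongation) at 1.18 ± 0.16 and Cpt1a, which admits fatty acids to mitochondria for oxidation, at -1.36 ± 0.20. Of 8 genes of cholesterol efflux and the sterol sensor LXR, 4 were lower in each genotype, beside these shares of all genes, with medians of -1.09 in DKO cells, -0.71 in EP2KO cells and -0.70 in WT cells.

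Stimulation under PGE2 or CM gave calls for Fasn and Acaca in each genotype. With PGE2, Fasn rose by 1.06 ± 0.20 in DKO cells, 1.03 ± 0.18 in EP2KO cells and 1.22 ± 0.24 in WT cells, and with CM by 1.04 ± 0.21, 1.13 ± 0.19 and 1.06 ± 0.20 in the same order. Acaca rose under PGE2 by 1.03 ± 0.29, 1.35 ± 0.26 and 1.30 ± 0.37 in that order. For Insig1 the log2 fold change under PGE2 was 1.22 ± 0.29 in DKO cells (adjusted p = 0.000699), 0.52 ± 0.27 in EP2KO cells (adjusted p = 0.165) and 0.46 ± 0.37 in WT cells (adjusted p = 0.517). Under CM it was 0.78 ± 0.32 in DKO cells (adjusted p = 0.0672), 0.55 ± 0.29 in EP2KO cells (adjusted p = 0.171) and 0.22 ± 0.30 in WT cells (adjusted p = 0.69). The treatments were not shown to alter the effect of stimulation on Insig1, with adjusted p of 0.264 to 1 for the 6 interactions. Under PGE2 9 members were called in DKO cells, 5 higher and 4 lower (31.5% of all tested genes, 17.3% higher and 14.2% lower). In EP2KO cells 2 were higher and 4 lower (23.5%, 13.4% and 10.1%), and in WT cells 2 were higher and 0 lower (8.25%, 5.29% and 2.97%). Under CM 3 members were higher and 3 lower in DKO cells (25.1%, 14.4% and 10.7%), 3 and 2 in EP2KO cells (23.1%, 12.6% and 10.5%), and 3 and 3 in WT cells (16.9%, 9.88% and 6.99%). The 6 calls of Fasn and the DKO call of Insig1 held without any 1 library. Acaca under PGE2 lost its call without unstimulated replicate 1 of the DKO libraries and without either of the 2 unstimulated WT libraries (adjusted p up to 0.185). Under CM it lost its call without stimulated DKO replicate 2, without unstimulated EP2KO replicate 1 or 3 and in 6 of 8 cases in WT cells (adjusted p up to 0.116). The count was 3 without PGE2-treated stimulated EP2KO replicate 1 and 1 without either PGE2-treated unstimulated WT library. Under CM it was 2 without unstimulated EP2KO replicate 3 and 3 without unstimulated WT replicate 1. NK markers held 0.572% to 0.657% of stimulated and 0.49% to 0.547% of unstimulated WT libraries under PGE2, and 0.569% to 0.661% and 0.467% to 0.547% under CM. T cell markers also did not overlap there, nor in EP2KO cells under PGE2, and were above with stimulation. Mitochondrial genes were below with stimulation in WT cells under PGE2 (8.39% to 10.4%, against 10.5% to 11.1%) and in EP2KO cells under CM (8.84% to 9.74%, against 10.4% to 12.2%). In DKO cells B cell markers (0.00975% to 0.0102%, against 0.0121% to 0.013%) and melanoma markers were below under PGE2. Macrophage and dendritic cell markers were below there under CM (0.00718% to 0.00968%, against 0.00989% to 0.012%). The part of these shares was not tested.

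PGE2 lowered Insig1 in stimulated WT cells. Insig1 had 11.9, 12.3, 18.4 and 14.8 CPM in PGE2-treated libraries, against 27.97, 38.5, 39.98 and 39.5 CPM in untreated ones, a log2 fold change of -1.34 ± 0.25 (adjusted p = 3.77e-05). Each treated library was below each untreated one. The same untreated stimulated libraries enter this comparison and that of stimulation. Fads1, the delta-5 desaturase of polyunsaturated fatty acids, had 23.8, 18.9, 31.9 and 20.9 CPM in PGE2-treated stimulated WT libraries, against 12.1, 11.4, 9.09 and 7.74 CPM in untreated ones (1.22 ± 0.32, adjusted p = 0.00441), again with no overlap. In all, 4 members were higher and 3 lower in this comparison, in which 15.6% of all tested genes were called (6% higher and 9.63% lower). The others were Mvk at 1.45 ± 0.46, Elovl6 at 0.67 ± 0.21 and Elovl5 at 0.45 ± 0.16, which were higher, and Hsd17b7 at -0.80 ± 0.28 and Fasn at -0.48 ± 0.17, which were lower.

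Fasn had 81.6, 59.3, 53.2 and 50.6 CPM in PGE2-treated stimulated WT libraries, against 107, 64.1, 80.9 and 89.8 CPM in untreated ones, with overlap through replicate 1 of the treated libraries. Hmgcs1 had 68.04, 71.6, 67.7 and 67.2 CPM in treated libraries, against 60.5, 59.8, 51.8 and 60.4 CPM in untreated ones, above in every library but not called (adjusted p = 0.344). Sqle had 27.2, 14.8, 29.00 and 14.8 CPM with PGE2, against 30.2, 29.2, 28.2 and 25.5 CPM without, and Srebf1 had 18.7, 16.5, 19.3 and 18.3 CPM, against 16.6, 9.26, 15.4 and 16.3 CPM. Both overlapped between the groups. Srebf2 had 50.2, 55.97, 50.3 and 36.6 CPM with PGE2, against 58.2, 49.1, 59.96 and 53.4 CPM without, and Acly had 68.04, 76.6, 63.8 and 67.2 CPM, against 99.02, 64.8, 77.2 and 53.4 CPM. Scd2 had 32.3, 35.4, 24.2 and 22.7 CPM with PGE2, against 36.3, 30.6, 30.9 and 17.03 CPM without. None of these 3 separated the groups.

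In this comparison the calls of Insig1 and Fads1 held without any 1 of the 8 libraries and under every alternative run. The count of 7 was 3 without replicate 1 or 4 of the untreated libraries and 4 with DESeq2 (Fasn, Hsd17b7 and Elovl5 not called). With 1 library left out Mvk lost its call without untreated replicate 1 or 2 or treated replicate 1, Elovl6 without untreated replicate 3 or 4 or treated replicate 4, Elovl5 in 5 of 8 cases, and Hsd17b7 and Fasn in 6 of 8, at adjusted p up to 0.213. T cell markers held 0.00486% to 0.00675% of the PGE2-treated libraries and 0.00731% to 0.0106% of the untreated ones, and of 5 tested T cell genes Cd3g at -1.67 ± 0.43 and Trac at -0.77 ± 0.19 were called lower. Their part in these levels was not tested.

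In unstimulated WT cells 0 of 32 members were called for PGE2 by edgeR and by DESeq2 (2.97% of all tested genes by edgeR), with 3 members at an unadjusted p under 0.05. With the replicate numbers as a block in the edgeR fit 2 members were called, and the share of all tested genes called in that fit is not given here. The treated group had 2 libraries. Srebf1 had 21.4 and 15.5 CPM in PGE2-treated libraries, against 7.94, 9.49, 12.3 and 11.5 CPM in untreated ones (0.85 ± 0.30, adjusted p = 0.121). Fads1 had 28.3 and 43.1 CPM in PGE2-treated libraries, against 24.5, 22.2, 17.96 and 14.8 CPM in untreated ones (0.83 ± 0.33, adjusted p = 0.201). For both, the treated libraries were above the untreated ones. Insig1 had 10.3 and 10.3 CPM with PGE2, against 18.8, 12.7, 22.7 and 17.3 CPM without, and Fasn had 28.3 and 24.1 CPM, against 39.7, 41.1, 31.2 and 28.04 CPM. Hmgcs1 had 67.6 and 57.8 CPM with PGE2, against 46.9, 60.9, 51.05 and 51.95 CPM without, and Sqle had 18.8 and 17.2 CPM, against 29.6, 22.9, 21.7 and 25.6 CPM. Insig1 and Sqle lay below all untreated libraries, without a call. Srebf2 had 38.5 and 52.6 CPM with PGE2, against 44.7, 35.6, 45.4 and 41.2 CPM without, Acly had 67.6 and 49.1 CPM, against 59.2, 74.4, 80.4 and 57.7 CPM, and Scd2 had 28.3 and 24.1 CPM, against 37.5, 27.7, 36.9 and 19.8 CPM. Mitochondrial genes held 10.5% to 11.1% of the PGE2-treated libraries and 7.28% to 10.1% of the untreated ones, T cell markers 0.00358% to 0.00483% and 0.0068% to 0.0084%, B cell markers 0.00657% to 0.00923% and 0.0103% to 0.0139%, and NK markers 0.49% to 0.547% and 0.704% to 0.777% in the same order. Of the NK genes only Ncr1 and Klrb1c were called, both lower. Gzmb averaged 1267 CPM with PGE2, against 2192 CPM, and Il2rb was above in both treated libraries. The part of these shares in the levels of the members was not tested.

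In DKO cells PGE2 gave 0 calls among the members and 0 among all 10723 genes in either state (0%), with edgeR, and 0 members with DESeq2 and at an unadjusted p under 0.05. Insig1 had 38.8, 23.7 and 23.97 CPM in PGE2-treated stimulated DKO libraries, against 33.3, 30.4 and 23.9 CPM in untreated ones, with a 95% interval of the log2 fold change of -0.55 to 0.48. In EP2KO cells Insig1 was lower with PGE2 in stimulated libraries, at 26.5, 18.2, 13.7 and 13.4 CPM, against 45.5, 34.9, 25.8 and 26.2 CPM in untreated ones (-0.87 ± 0.24, adjusted p = 0.0123), the only one of 32 members called there (7.29% of all tested genes, 3.39% higher and 3.9% lower). The groups overlapped through 1 treated library at 26.5 CPM, and the call was lost without replicate 1 of the untreated or replicate 3 or 4 of the treated libraries (adjusted p up to 0.126). In unstimulated EP2KO cells Elovl5, which elongates polyunsaturated fatty acids, was the only member called (3.15% of all tested genes, 1.75% higher and 1.4% lower). It had 59.2, 61.95, 74.2 and 60.5 CPM in PGE2-treated libraries, against 43.3, 41.1, 45.4 and 44.4 CPM in untreated ones (0.55 ± 0.16, adjusted p = 0.0358), without overlap. The call was lost without any 1 of the 4 untreated libraries or treated replicate 2 or 3 (adjusted p up to 0.181). T cell markers held 0.00548% to 0.00701% of these PGE2-treated libraries and 0.00735% to 0.01% of the untreated ones, and their part was not tested.

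The effect of PGE2 on Insig1 in stimulated cells differed between DKO and WT cells. The log2 effect was -0.03 ± 0.26 in DKO cells and -1.34 ± 0.25 in WT cells, and the DKO minus WT difference was 1.31 ± 0.36 (adjusted p = 0.0195). It was the 1 member called among all differences between genotypes in the PGE2 or CM effect (4.27% of all tested genes for this difference, 2.59% positive and 1.68% negative). The call was lost without replicate 3 of the untreated or replicate 1 of the PGE2-treated stimulated DKO libraries (adjusted p up to 0.119) and in a fit of only the compared libraries (adjusted p = 0.066), and Xist and Ddx3y also differ between these genotypes. The DKO minus EP2KO difference was 0.83 ± 0.35 (adjusted p = 0.41) and the EP2KO minus WT difference 0.48 ± 0.35 (adjusted p = 1). For Fads1 the DKO minus WT difference in stimulated cells was -1.34 ± 0.50 (adjusted p = 0.122).

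**Figure D2:**
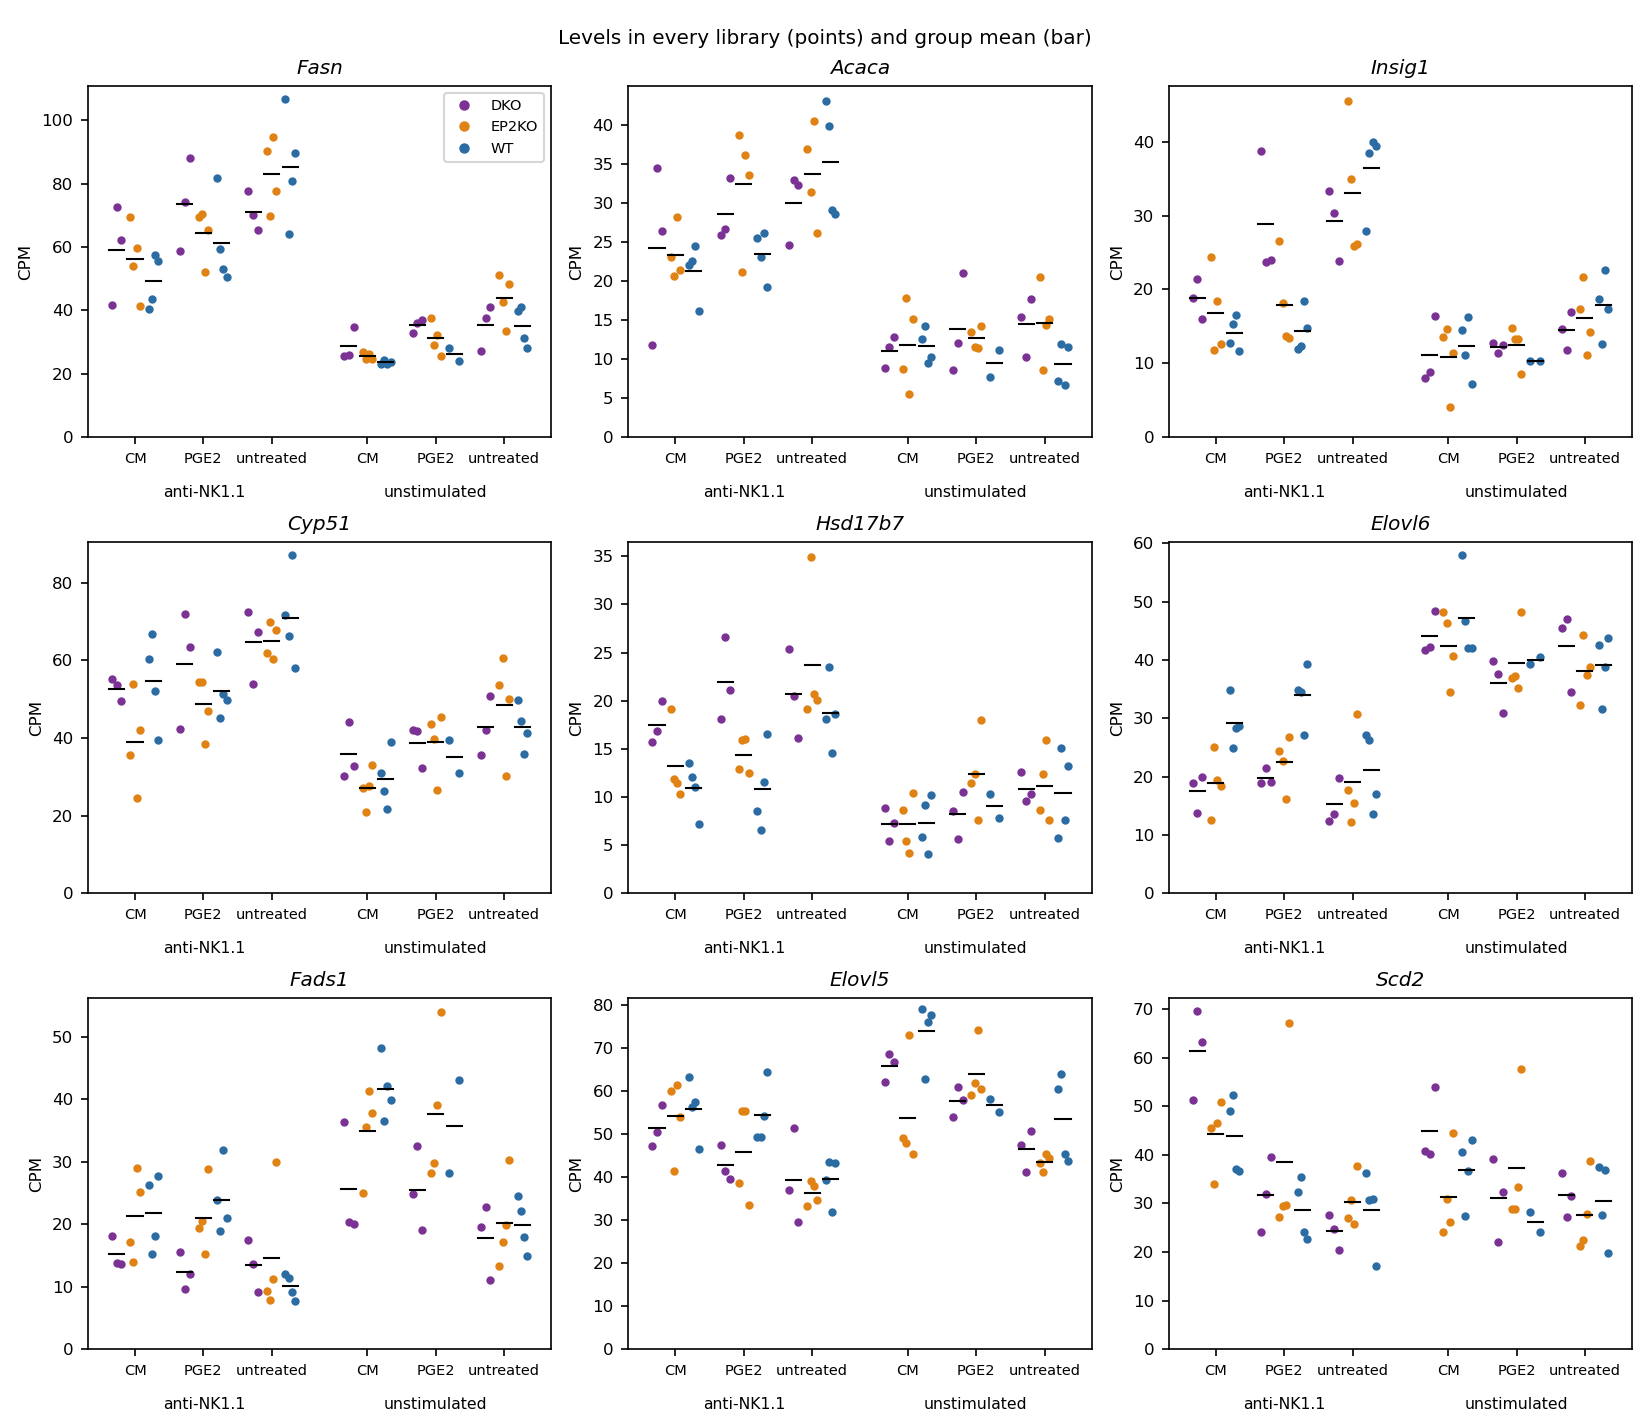
CPM of 9 members in every library (points) of the 18 groups, with group means as bars; stimulated groups are on the left of each panel. In stimulated cells Insig1 averaged 14.1 CPM with CM, 14.4 CPM with PGE2 and 36.5 CPM untreated in WT cells, while DKO cells averaged 18.8, 28.8 and 29.2 CPM.

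CM lowered Insig1, Fasn and Acaca and raised Fads1 and Elovl5 in stimulated WT cells. The PGE2 and CM comparisons share their untreated libraries, so their values are given side by side without a test of likeness. Insig1 had 12.8, 15.3, 16.6 and 11.6 CPM in CM-treated libraries, against 27.97, 38.5, 39.98 and 39.5 CPM in untreated ones (-1.36 ± 0.25, adjusted p = 2.67e-05). Fasn had 40.5, 43.5, 57.5 and 55.5 CPM in CM-treated libraries, against 107, 64.1, 80.9 and 89.8 CPM in untreated ones (-0.79 ± 0.17, adjusted p = 0.000379). Neither gene overlapped between the groups. Acaca was lower at -0.72 ± 0.24, while Fads1 was higher at 1.101 ± 0.32 and Elovl5 at 0.50 ± 0.16. These 5 of 32 members were the ones called (15.4% of all tested genes, 6.2% higher and 9.22% lower). The calls of Insig1 and Fasn held without any 1 library. Without replicate 1 of the CM-treated libraries the count was 2, as Acaca, Fads1 and Elovl5 lost their calls. Elovl5 lost it also without untreated replicate 3, and Acaca without untreated replicate 1 or 2 or CM-treated replicate 4 (adjusted p up to 0.103).

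In the same comparison Hmgcs1 had 56.9, 47.5, 70.95 and 42.1 CPM with CM, against 60.5, 59.8, 51.8 and 60.4 CPM without, and Srebf2 had 45.5, 41.1, 42.6 and 42.95 CPM, against 58.2, 49.1, 59.96 and 53.4 CPM. Sqle had 22.8, 16.1, 24.4 and 19.7 CPM with CM, against 30.2, 29.2, 28.2 and 25.5 CPM without. For Sqle and Srebf2 the CM-treated libraries lay below all untreated ones without a call (adjusted p = 0.198 and 0.105). Srebf1 had 21.3, 18.5, 20.5 and 15.2 CPM with CM, against 16.6, 9.26, 15.4 and 16.3 CPM without, and Acly had 68.99, 67.6, 52.03 and 56.4 CPM, against 99.02, 64.8, 77.2 and 53.4 CPM. Both overlapped.

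In unstimulated WT cells CM raised Fads1 and lowered Fdps. Fads1 had 48.3, 36.5, 42.1 and 39.9 CPM in CM-treated libraries, against 24.5, 22.2, 17.96 and 14.8 CPM in untreated ones (1.06 ± 0.28, adjusted p = 0.0102). Fdps had 20.3, 16.2, 16.3 and 16.4 CPM in CM-treated libraries, against 32.5, 39.6, 30.2 and 43.7 CPM in untreated ones (-1.07 ± 0.35, adjusted p = 0.0437). Neither overlapped, and these 2 members were the ones called (8.23% of all tested genes, 4.55% higher and 3.68% lower). With the replicate numbers as a block in the fit 6 members were called, and the share of all tested genes called in that fit is not given here. Without replicate 4 of the untreated libraries 0 members were called, and Fdps lost its call without each of 7 of the 8 libraries, all but untreated replicate 3 (adjusted p up to 0.131). Fasn had 23.2, 24.4, 23.1 and 23.5 CPM with CM, against 39.7, 41.1, 31.2 and 28.04 CPM without, below in every library but not called (adjusted p = 0.0777). Insig1 had 14.5, 11.2, 16.3 and 7.17 CPM with CM, against 18.8, 12.7, 22.7 and 17.3 CPM without, and Sqle had 14.5, 15.2, 17.7 and 22.5 CPM, against 29.6, 22.9, 21.7 and 25.6 CPM. Hmgcs1 had 49.2, 42.6, 43.5 and 51.2 CPM with CM, against 46.9, 60.9, 51.05 and 51.95 CPM without. These 3 genes overlapped between the groups. Srebf1 had 15.5, 12.2, 17.7 and 10.2 CPM with CM, against 7.94, 9.49, 12.3 and 11.5 CPM without, Srebf2 had 56.01, 35.5, 38.03 and 41.98 CPM, against 44.7, 35.6, 45.4 and 41.2 CPM, and Acly had 58.9, 65.99, 55.7 and 66.5 CPM, against 59.2, 74.4, 80.4 and 57.7 CPM. They overlapped too. T cell markers held 0.00273% to 0.00496% of the CM-treated libraries and 0.0068% to 0.0084% of the untreated ones, mitochondrial genes 9.34% to 12.3% and 7.28% to 10.1%, B cell markers 0.00666% to 0.01% and 0.0103% to 0.0139%, and NK markers 0.467% to 0.547% and 0.704% to 0.777%. The NK genes went both ways. Gzmb (1004 CPM with CM, against 2192 CPM), Ncr1, Klrb1c, Tbx21 and Nkg7 were called lower and Il2rb higher (0.42 ± 0.11). Klrk1, Klrd1, Eomes and Prf1 were not called. The part of these shares in the levels of the members was not tested.

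**Figure D3:**
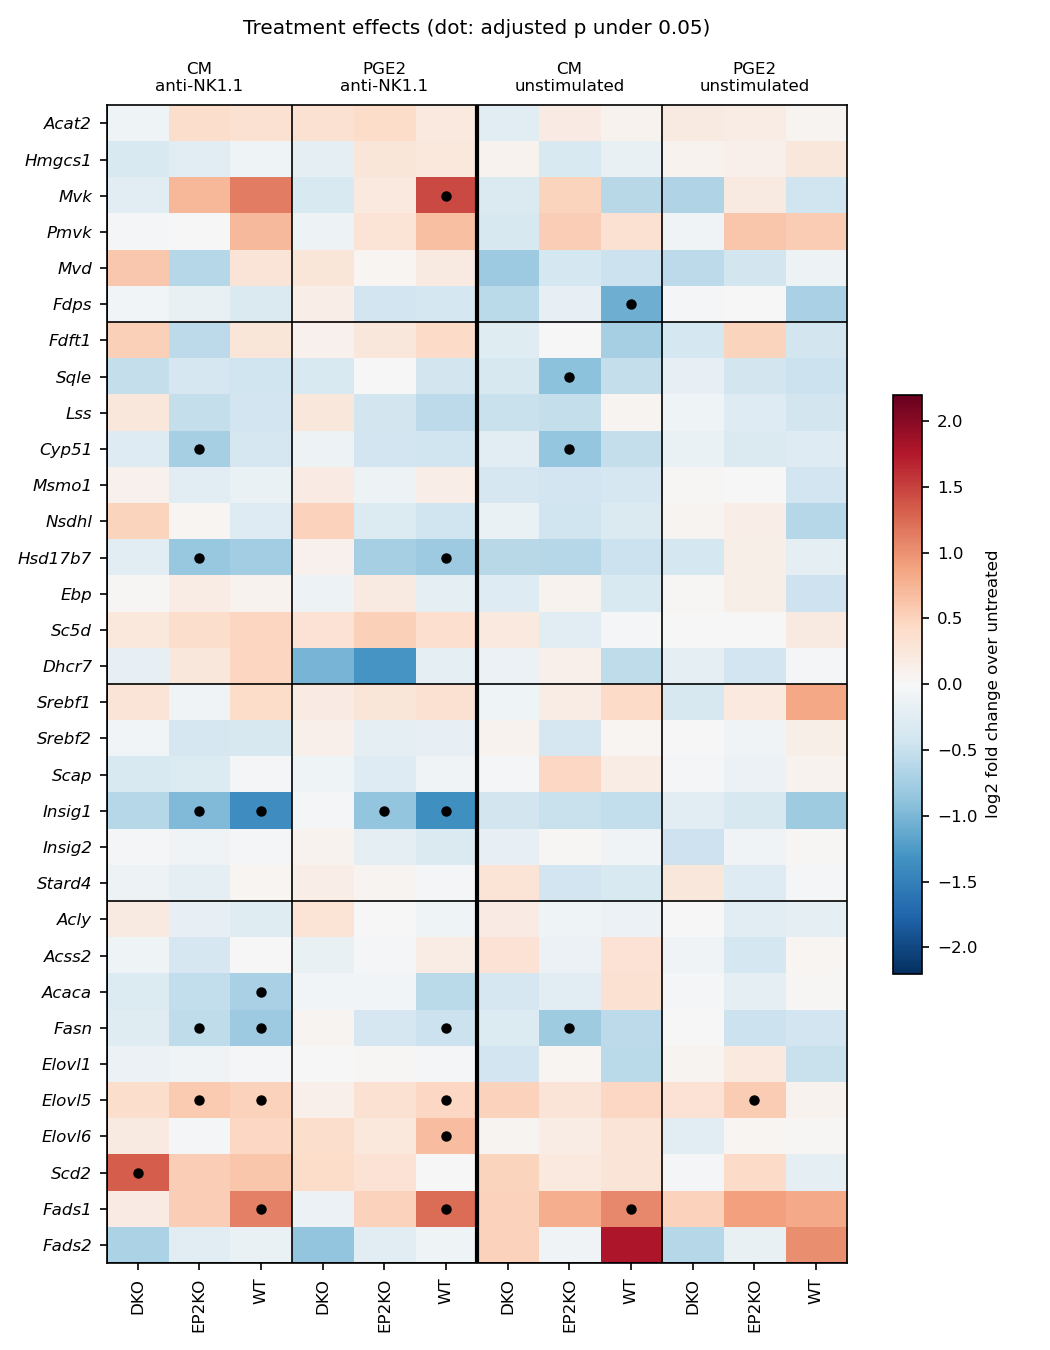
Log2 fold change of each tested member for CM and for PGE2 over untreated cells (colour; red is higher with treatment), by stimulation state and genotype; dots mark an adjusted p under 0.05. Insig1 has dots in stimulated WT and EP2KO cells for both treatments, and the DKO columns hold 1 dot, Scd2 with CM in stimulated cells.

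In EP2KO cells, whose Ptger4 alleles are floxed without Cre, CM lowered Insig1, Fasn, Cyp51 and Hsd17b7 and raised Elovl5 under stimulation. There 1 member was higher and 4 lower (10.4% of all tested genes, 4.5% higher and 5.91% lower). Insig1 had 24.4, 11.8, 18.5 and 12.6 CPM in CM-treated libraries, against 45.5, 34.9, 25.8 and 26.2 CPM in untreated ones (-0.97 ± 0.24, adjusted p = 0.00304). Fasn had 69.3, 53.9, 59.8 and 41.4 CPM with CM, against 90.2, 69.9, 94.7 and 77.8 CPM without (-0.56 ± 0.17), and Cyp51 had 35.6, 53.9, 24.6 and 42.1 CPM, against 61.8, 69.9, 60.3 and 67.8 CPM (-0.72 ± 0.19). Hsd17b7 was lower at -0.83 ± 0.26 and Elovl5 higher at 0.58 ± 0.16. None of these 5 genes, which were picked by their calls, overlapped between the groups. The call of Insig1 held without any 1 library. The count was 2 without replicate 3 of the CM-treated libraries, which cost the calls of Elovl5, Cyp51 and Hsd17b7. Hsd17b7 also lost its call without untreated replicate 2 or CM-treated replicate 2 or 4, and Fasn without untreated replicate 1 or 3 or CM-treated replicate 2 or 4 (adjusted p up to 0.236).

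In unstimulated EP2KO cells 3 members were lower with CM (4.37% of all tested genes, 2.23% higher and 2.14% lower). Sqle had 15.4, 12.4, 12.4 and 25.5 CPM in CM-treated libraries, against 33.1, 31.1, 28.7 and 31.2 CPM in untreated ones (-0.90 ± 0.24, adjusted p = 0.0151). Fasn had 26.99, 24.7, 26.2 and 24.6 CPM with CM, against 51.2, 42.7, 33.4 and 48.2 CPM without (-0.77 ± 0.20, adjusted p = 0.0113). Cyp51 had 26.99, 20.9, 27.6 and 33.1 CPM with CM, against 53.5, 60.6, 30.3 and 50.1 CPM without (-0.85 ± 0.21, adjusted p = 0.00879). Sqle and Fasn did not overlap, while replicate 3 of the untreated libraries reached down into the treated range for Cyp51. With 1 library left out the count was between 1 and 4. Sqle lost its call without CM-treated replicate 2 or 3, Cyp51 without untreated replicate 2 or CM-treated replicate 2, and Fasn without untreated replicate 1 (adjusted p up to 0.1). T cell markers held 0.00491% to 0.00711% of the CM-treated libraries and 0.00735% to 0.01% of the untreated ones, and NK markers 0.428% to 0.544% and 0.551% to 0.767% in the same order. Of the NK genes Gzmb (927 CPM with CM, against 1703 CPM), Ncr1 and Klrb1c were called lower. The others were not called, and Il2rb was above in every treated library. The part of these shares was not tested. The DKO minus EP2KO differences of the CM effect gave 0 member calls with edgeR and with DESeq2, 2 and 3 members being at an unadjusted p under 0.05 (0.214% of all tested genes in unstimulated cells and 0.345% in stimulated cells), and those of EP2KO minus WT gave 0, with 0 at an unadjusted p under 0.05 (0% in both states).

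In DKO cells Scd2 was the 1 member called with CM. Insig1 was lower in every CM-treated stimulated DKO library than in every untreated stimulated one, without a call. Scd2 encodes a stearoyl-CoA desaturase, which puts the double bond into stearate to make oleate. It had 51.2, 69.6 and 63.1 CPM in CM-treated stimulated DKO libraries, against 27.5, 24.8 and 20.4 CPM in untreated ones. All treated libraries lay above all untreated ones, and the log2 fold change was 1.34 ± 0.27 (95% interval 0.79 to 1.88, adjusted p = 0.017). In this comparison 8 of 10723 genes were called (0.0746%, 0.056% higher and 0.0187% lower). Scd2 was among the genes because its response was known when the list was made, so its p and the separation of its libraries are no independent test. The adjusted p was at most 0.173 with 1 library left out. The call was lost without untreated replicate 2 or 3 or CM-treated replicate 2 or 3, and in a fit of the DKO libraries alone.

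In the other settings the effect of CM on Scd2 did not pass the test. It had 40.8, 40.1 and 53.9 CPM in CM-treated unstimulated DKO libraries, against 36.3, 27.2 and 31.6 CPM in untreated ones (0.49 ± 0.27, adjusted p = 0.995). In stimulated EP2KO cells it had 45.5, 33.97, 46.6 and 50.96 CPM with CM, against 27.00, 30.7, 25.8 and 37.7 CPM without (0.54 ± 0.24, adjusted p = 0.15). In stimulated WT cells it had 49.1, 52.3, 37.1 and 36.7 CPM with CM, against 36.3, 30.6, 30.9 and 17.03 CPM without (0.61 ± 0.24, adjusted p = 0.0751). The CM-treated libraries were above the untreated ones in stimulated WT cells and in unstimulated DKO cells, but overlapped in stimulated EP2KO cells. In unstimulated EP2KO cells it had 24.1, 30.9, 26.2 and 44.4 CPM with CM, against 21.3, 22.5, 27.9 and 38.8 CPM without, and in unstimulated WT cells 40.6, 27.4, 36.7 and 43.00 CPM with CM, against 37.5, 27.7, 36.9 and 19.8 CPM without. The difference of the CM effect in stimulated cells was 0.79 ± 0.36 for DKO minus EP2KO (adjusted p = 0.622) and 0.72 ± 0.36 for DKO minus WT (adjusted p = 0.481), so the effect was not shown to differ between genotypes.

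PGE2 gave no call for Scd2. In stimulated DKO cells it had 24.1, 31.9 and 39.5 CPM with PGE2, against the untreated levels above, and in unstimulated DKO cells 39.1, 21.96 and 32.3 CPM. In EP2KO cells it had 27.2, 29.5, 29.7 and 67.2 CPM with PGE2 and stimulation and 28.9, 28.9, 33.3 and 57.7 CPM with PGE2 alone, in each case with replicate 4 far above the rest. CM was also set against PGE2 directly. In stimulated DKO cells Scd2 had 0.93 ± 0.27 on the log2 scale, CM minus PGE2 (adjusted p = 0.428), with all CM-treated libraries above all PGE2-treated ones. In stimulated WT cells it had 0.61 ± 0.24 (adjusted p = 0.959) and in stimulated EP2KO cells 0.23 ± 0.23 (adjusted p = 1).

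CM and PGE2 gave 0 member calls in the 6 direct comparisons by edgeR and by DESeq2, with 0 to 4 members at an unadjusted p under 0.05 and at most 0.00933% of all tested genes called by edgeR. With the replicate numbers as a block in the edgeR fit there was 1 member call, and the share of all tested genes called in that fit is not given here. Hmgcs1 was the member with the smallest or next smallest p in each WT and EP2KO comparison. In stimulated EP2KO cells it had 48.2, 47.3, 41.3 and 46.5 CPM with CM, against 64.5, 70.4, 56.2 and 71.00 CPM with PGE2 (-0.51 ± 0.16, adjusted p = 1), with no overlap. In unstimulated EP2KO cells it had 48.2, 46.4, 38.6 and 51.95 CPM with CM, against 73.3, 53.7, 49.5 and 78.5 CPM with PGE2 (-0.45 ± 0.16). In WT cells the difference was -0.33 ± 0.16 with stimulation and -0.42 ± 0.20 without. Elovl5 had 79.2, 62.9, 76.1 and 77.8 CPM with CM in unstimulated WT cells, against 58.2 and 55.2 CPM with PGE2, and Scap, which carries the SREBPs, had 24.1, 40.95, 34.4 and 34.95 CPM with CM in unstimulated EP2KO cells, against 24.2, 18.2, 21.9 and 25.5 CPM with PGE2. Dhcr7 had 7.26, 3.69, 7.91 and 2.95 CPM with CM in stimulated EP2KO cells, against 0.717, 3.03, 2.41 and 0.959 CPM with PGE2, at a few counts per library. In DKO cells the next smallest p after Scd2 belonged to Insig1 with stimulation and to Elovl1 (which elongates saturated very long chain fatty acids) without. Insig1 had 18.9, 21.4 and 15.98 CPM with CM, against 38.8, 23.7 and 23.97 CPM with PGE2 (-0.60 ± 0.28, adjusted p = 0.827), and Elovl1 had 51.4, 47.6 and 35.6 CPM with CM, against 70.5, 60.9 and 55.99 CPM with PGE2.

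In stimulated DKO cells Hmgcs1 had 40.2, 60.5 and 57.5 CPM with CM and 46.6, 62.96 and 62.7 CPM with PGE2. Sqle had 16.5, 23.7 and 12.8 CPM with CM and 20.7, 24.4 and 15.5 CPM with PGE2, and Fasn had 41.7, 72.7 and 62.3 CPM with CM and 58.6, 74.1 and 88.1 CPM with PGE2. None of the 3 was called against untreated stimulated DKO libraries. In stimulated EP2KO cells Sqle had 17.8, 18.5, 18.5 and 26.6 CPM with CM and 26.5, 37.9, 26.5 and 13.4 CPM with PGE2, and Fasn 69.5, 70.4, 52.2 and 65.2 CPM with PGE2. In unstimulated DKO cells Insig1 had 7.98, 8.85 and 16.5 CPM with CM and 12.8, 11.3 and 12.5 CPM with PGE2, and Fasn had 25.7, 25.9 and 34.7 CPM with CM and 32.7, 36.1 and 36.9 CPM with PGE2. Neither was called against untreated unstimulated DKO libraries. Srebf1, Srebf2 and Acly were called for no treatment in any genotype. Over all groups the mean of Acly ran from 58.0 to 81.2 CPM, that of Srebf2 from 37.6 to 55.2 CPM and that of Hmgcs1 from 45.8 to 68.6 CPM. Wider spans belonged to Fads1, from 10.1 to 41.7 CPM, Acaca, from 9.31 to 35.2 CPM, Fasn, from 23.5 to 85.3 CPM, and Insig1, from 10.3 to 36.5 CPM.

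The interaction of each treatment with stimulation gave 0 member calls in any genotype with edgeR and with DESeq2, with 0 to 4 members at an unadjusted p under 0.05. The genes called were 1.31% of those tested for PGE2 in WT cells and 2.19% for CM in WT cells. For Insig1 the PGE2 effect with stimulation minus that without was -0.57 ± 0.45 in WT cells (adjusted p = 0.673), so the fall with PGE2 was not shown to depend on stimulation. For Acaca the CM interaction in WT cells was -1.05 ± 0.41 (adjusted p = 0.159) and for Mvk 1.75 ± 0.61 (adjusted p = 0.106). The untreated genotypes also gave 0 member calls in either state with edgeR and with DESeq2 (0.056% to 0.131% of all tested genes by edgeR), with 0 to 6 members at an unadjusted p under 0.05. The smallest p there was that of Elovl1 in unstimulated cells, EP2KO minus WT, at -0.63 ± 0.22 (adjusted p = 0.607).

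Among the lipid genes outside the 32, Dgat1, which makes triglycerides for storage, rose with both treatments in EP2KO and WT cells. With PGE2 its log2 fold change was 2.13 ± 0.23 in stimulated EP2KO cells and 2.49 ± 0.23 in stimulated WT cells, and with CM it was 2.02 ± 0.23 and 2.11 ± 0.24 in the same order. In stimulated DKO cells it was 0.43 ± 0.28 with CM and 0.22 ± 0.29 with PGE2, neither called, and the DKO minus WT difference was -1.68 ± 0.37 for CM (adjusted p = 0.00604) and -2.27 ± 0.37 for PGE2 (adjusted p = 2.3e-05). Mgll, which breaks down monoglycerides, was lower with PGE2 in stimulated cells, at 0.770 CPM, against 11.7 CPM untreated, in EP2KO cells and 0.624 CPM, against 10.95 CPM untreated, in WT cells. Hacd3, a dehydratase of fatty acid elongation, rose with PGE2 by 1.04 ± 0.17 in stimulated EP2KO cells and 1.08 ± 0.17 in stimulated WT cells, and Cpt1a by 0.89 ± 0.20 and 1.21 ± 0.20. The CM difference of Dgat1 was not called without untreated stimulated DKO replicate 2 (adjusted p = 0.204), while the other called values of this paragraph held without any 1 library. Of 66 such genes, 9 were higher and 5 lower with PGE2 in stimulated WT cells, 8 and 5 with CM (6% and 9.63% of all tested genes for PGE2, 6.2% and 9.22% for CM), and 0 were called for either treatment in DKO cells with edgeR. In those DKO comparisons 0% to 0.0746% of all tested genes were called, and 3 to 9 of the 66 had an unadjusted p under 0.05.

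The spread between replicate numbers was itself uneven. In EP2KO cells replicate 4 stood apart for Fads2, the delta-6 desaturase that starts the synthesis of polyunsaturated fatty acids. Its 6 libraries, 1 for each condition, had 14.0 to 26.5 CPM (16 to 29 counts), against 1.59 to 7.43 CPM (2 to 9 counts) in the other 18 EP2KO libraries and 0 to 14.2 CPM in the 40 WT and DKO libraries. Replicate 4 was also the highest EP2KO library for Scd2 in each of the 6 conditions, at 37.7 to 67.2 CPM, against 21.3 to 46.6 CPM in the others. For Fads1 its range was 25.1 to 53.9 CPM, against 7.84 to 41.3 CPM. For no other gene of the 35, genotype and replicate number did all libraries of a replicate lie above or below all other libraries of the genotype, although some were the highest library in each of the 6 conditions: replicate 2 of WT cells for Fads2, and replicates 1, 2 and 3 of DKO cells for Ebp, Sqle and Lss in that order. Erythroid markers held a median of 0.0024% of the replicate 4 libraries, against 0.000163% to 0.000304% in the other EP2KO replicates, and neutrophil markers a median of 0.0542%, against 0.0118% to 0.0722%. Their part in the Fads2 level was not tested.

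**Figure D4:**
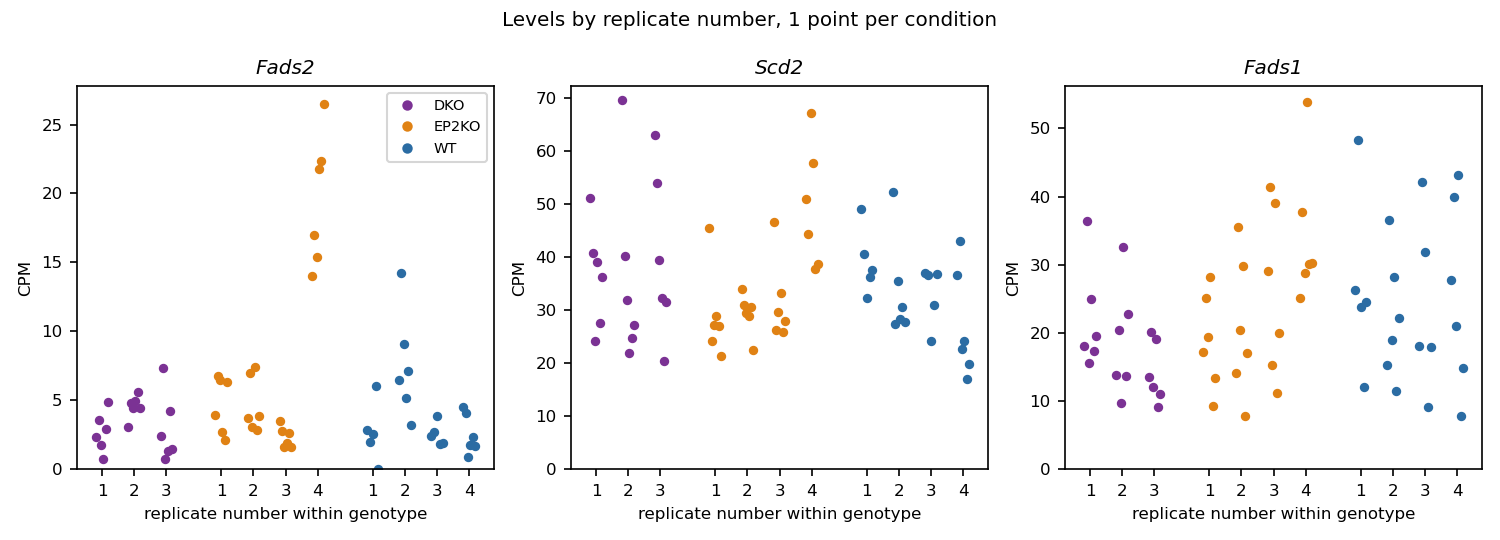
CPM of Fads2, Scd2 and Fads1 by replicate number within genotype, with 1 point for each of up to 6 conditions. For Fads2 the EP2KO replicate 4 points lie between 14.0 and 26.5 CPM, above the other EP2KO points, which end at 7.43 CPM.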

How the data were processed

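The authors deposited 1 table of raw counts per gene symbol for 64 libraries. Per the labels' protocols the libraries are 3′ mRNA-seq, and the submitters' processing notes name the build GRCm38/mm10 and DESeq2. Whether the counts are reads or molecules, and whether counting used the strand, is not given in the sources used here. In R 4.3.3, edgeR 4.0.16 kept 10723 genes (filterByExpr, minimum count 10, 99.21% of all counts), scaled by TMM and fitted quasi-likelihood models with 1 mean for each of the 18 groups over all 64 libraries. Genes were called at a Benjamini-Hochberg adjusted p under 0.05 over all tested genes. Counts at an unadjusted p under 0.05 and overlaps of libraries are given without the share of all tested genes, which was not counted. Groups of so few libraries can also lie apart by chance. The step was tested on simulated data. CPM are counts per 1000000 of a library's total multiplied by its TMM factor; folds come from the fit. Alternatives were DESeq2 1.42.0, RLE scaling, no filter, fewer libraries, a replicate block and leaving out each library.

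Members and lists were chosen with earlier results of these data known. Values in every library are given for 8 genes (Scd2, Hmgcs1, Sqle, Insig1, Srebf1, Srebf2, Fasn and Acly) and for the 2 members with the smallest p of each WT comparison and of each comparison of CM with PGE2, with others added to show called values. Every called member of a WT comparison with an untreated control is named, and up to 4 called lipid genes outside the list per comparison; a withheld item is not reported here. Totals set the precision: at 1 CPM a gene rests on about 1 count, and errors of the fit cover the spread between libraries only.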

Additional observations from a re-analysis of the deposited data

Results flagged for a closer look

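Of 165 groups of 4 libraries examined for the named genes, 9 held a library far from the other 3 (its gap to the nearest of them, as a share of the range, above Dixon's 95% critical value), where chance gives about 1 in 20. The share flagged was thus near that of chance, and the 9 are listed as values only. Scd2 in replicate 4 of the EP2KO libraries had 67.2 CPM with PGE2 and stimulation, beside 27.2 to 29.7 CPM in the other replicates, and 57.7 CPM with PGE2 alone, beside 28.9 to 33.3 CPM. The same replicate had 30.03 CPM of Fads1 in untreated stimulated cells, beside 7.84 to 11.2 CPM, and 26.6 CPM of Sqle with CM and stimulation, beside 17.8 to 18.5 CPM. In unstimulated EP2KO cells with CM, replicate 3 had 73.0 CPM of Elovl5, beside 45.3 to 49.2 CPM. In untreated stimulated WT cells Insig1 had 28.0 CPM in replicate 1, beside 38.5 to 40.0 CPM, Hmgcs1 had 51.8 CPM in replicate 3, beside 59.8 to 60.5 CPM, and Srebf1 had 9.26 CPM in replicate 2, beside 15.4 to 16.6 CPM. Fdps had 20.3 CPM in replicate 1 of the unstimulated WT libraries with CM, beside 16.2 to 16.4 CPM. The effect of PGE2 on Insig1 in stimulated cells differed between DKO and WT cells, by 1.31 on the log2 scale.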

How the results depend on the processing

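Over 155 called pairs of a gene and a comparison, lipid genes outside the 32 members included, 1977 values under other settings gave 1743 on the same side of the threshold, 234 that lost it and 0 of opposite sign. The alternatives for stimulation under PGE2 or CM and for lipid genes outside the members were added after the data were seen. Depth limits low genes most: at a few counts per library Mvk, Dhcr7, Acat2 and Fads2 show only large changes. Scaling by RLE changed no count of called members.

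Only the larger changes in count are listed in this paragraph. With DESeq2 4 members were called for PGE2 in stimulated WT cells in place of 7. Without a filter on low counts, which raises the number of genes adjusted for, this count was 2, that of stimulation in untreated DKO cells 6 in place of 11, that of stimulation under CM 3 in WT cells in place of 6 and 3 in EP2KO cells in place of 5, and that of CM in stimulated cells 2 in EP2KO cells in place of 5 and 3 in WT cells in place of 5. In fits of only the libraries of 1 genotype the count for PGE2 in stimulated WT cells was 4. In such fits 0 members in place of 1 were called for PGE2 in unstimulated EP2KO cells and for CM in stimulated DKO cells. With only the libraries of the compared groups, 0 in place of 1 were called for treatment by genotype. With replicates 2 and 4 of the unstimulated WT libraries alone, CM gave 0 calls in place of 2.

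Deviations of same-numbered libraries within a genotype had a mean correlation of 0.261 in DKO, 0.229 in EP2KO and 0.197 in WT cells, above 0.1 in 38 of 45, 47 of 60 and 38 of 50 pairs. Libraries with other numbers had means of -0.13, -0.0759 and -0.0656. As not every pair was above 0.1, the numbers were not used as pairs in the main fit. That rule does not show same-numbered libraries to be unrelated, as 17 of 18, 18 of 24 and 16 of 22 libraries correlated best with their own number. The labels do not say whether the numbers mark a shared origin. With the replicate block no member count fell and most rose, and the share of all tested genes called in that fit is not given here. Stimulation of untreated cells gave 13 calls in DKO cells in place of 11, 10 in EP2KO cells in place of 6 and 20 in WT cells in place of 16. Under CM it gave 10 in place of 6, 8 in place of 5 and 7 in place of 6 in the same order. Under PGE2 it gave 13 in place of 9, 8 in place of 6 and 4 in place of 2. In unstimulated cells the block gave 2 calls for PGE2 in EP2KO cells in place of 1 and 2 in WT cells in place of 0. For CM it gave 4 in EP2KO cells in place of 3 and 6 in WT cells in place of 2. In stimulated cells it gave 2 for PGE2 in EP2KO cells in place of 1 and 9 in WT cells in place of 7. For CM there it gave 6 in place of 5 and 7 in place of 5 in the same order. It gave 1 for CM against PGE2 in place of 0 and 2 for treatment by genotype in place of 1.

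With any 1 library left out, the count for stimulation of untreated cells was 4 to 10 in DKO, 6 to 11 in EP2KO and 13 to 17 in WT cells, under PGE2 6 to 9, 3 to 7 and 1 to 2, and under CM 5 to 6, 2 to 6 and 3 to 6 in the same order. For PGE2 it was 0 to 2 in unstimulated and 0 to 3 in stimulated EP2KO cells, and 0 to 0 and 3 to 5 in WT cells. For CM it was 0 to 1 in stimulated DKO cells, 1 to 4 and 2 to 6 in unstimulated and stimulated EP2KO cells, and 0 to 2 and 2 to 6 in WT cells. For treatment by genotype it was 0 to 1, for treatment by stimulation 0 to 1, and for CM against PGE2, for the untreated genotypes and for the remaining DKO comparisons 0.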
